A study of Mus musculus with 22 samples.

Results

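The genes described here are 10 regulators of the transcription program that round spermatids run after meiosis: *Crem*, *Mybl1*, *Tbpl1*, *Taf7l*, *Rfx2*, *Rfx4*, *Sox30*, *Gtf2a1l*, *Fhl5* and *Kif17*. They were chosen by name, as rows of the testes RNA-seq count table, and all 10 were found among its 17931 gene symbols. RNA was taken from whole testes of 3 wild-type (WT) males and 3 males with a constitutive Mlx knockout (MLXKO), all 7 months old and untreated, in pairs of age-matched littermates numbered 1 to 3. The knockout allele was made in 129S4 embryonic stem cells and lacks exons 3 to 6 of *Mlx*, which encode the dimerization and DNA binding region of MLX, deleted by crossing to Meox2-Cre mice, and the WT males were proven breeders. Which of the study's independent knockout lines gave the RNA is not given in the sources used here. The series' ChIP-seq libraries were not analysed here.

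After meiosis, haploid spermatids remodel into sperm, and they need a set of genes, among them those for protamines, transition proteins and flagellar parts, that are off in nearly all other cells. CREM, a CRE-binding factor of the CREB and ATF family, activates many of these genes together with its LIM-only coactivator ACT, which *Fhl5* encodes, and the kinesin KIF17 controls where ACT lies in the spermatid. Germ cells also carry their own versions of the general transcription machinery: TBPL1 (TRF2) is a relative of the TATA-binding protein, GTF2A1L (ALF) a form of the large TFIIA subunit, and TAF7L a form of the TFIID subunit TAF7. A-MYB, the product of *Mybl1*, acts one step earlier, in pachytene spermatocytes, and RFX2 and SOX30 act from late meiosis into the round spermatid. RFX4, a relative of RFX2, is best known from the brain and is also expressed in testis.

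Promoter sequences are shown for 4 members that had a match to a binding motif of one of these factors or of MLX itself. RefSeq sequences on GRCm38.p6, which run from 250 bases before to 50 bases after a transcription start, were used for 8 of the 10 members. The promoters of *Crem* and *Mybl1* were not searched. Capitals mark each match, on either strand, to the CRE (TGACGTCA) or its core (TGACG), the E-box that MLX and its partners bind (CACGTG), the RFX X-box (GTTNCC, a spacer of 2 or 3 bases and GNAAC), a MYB motif (CAACTG) or a SOX motif (ACAATGG).
*Kif17*, chr4:138262001-138262300, plus strand: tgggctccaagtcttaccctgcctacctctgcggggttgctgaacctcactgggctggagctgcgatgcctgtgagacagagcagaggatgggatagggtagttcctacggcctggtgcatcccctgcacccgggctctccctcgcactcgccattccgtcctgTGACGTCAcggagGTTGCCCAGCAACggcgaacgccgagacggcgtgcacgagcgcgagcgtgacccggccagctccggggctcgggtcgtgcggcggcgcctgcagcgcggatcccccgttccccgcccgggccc
*Rfx2*, chr17:56830959-56831258, minus strand: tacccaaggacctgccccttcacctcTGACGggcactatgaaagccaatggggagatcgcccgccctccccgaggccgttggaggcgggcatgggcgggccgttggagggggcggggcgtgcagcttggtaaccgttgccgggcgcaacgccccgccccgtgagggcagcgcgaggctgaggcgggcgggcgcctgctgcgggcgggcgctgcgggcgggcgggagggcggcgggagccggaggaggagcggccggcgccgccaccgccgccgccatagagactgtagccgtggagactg
*Rfx4*, chr10:84755798-84756097, plus strand: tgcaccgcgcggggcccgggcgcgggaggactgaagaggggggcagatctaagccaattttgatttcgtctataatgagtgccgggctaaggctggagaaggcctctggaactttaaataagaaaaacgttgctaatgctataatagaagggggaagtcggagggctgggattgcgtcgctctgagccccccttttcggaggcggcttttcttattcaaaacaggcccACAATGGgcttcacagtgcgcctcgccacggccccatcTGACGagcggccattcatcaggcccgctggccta
*Taf7l*, chrX:134476441-134476740, minus strand: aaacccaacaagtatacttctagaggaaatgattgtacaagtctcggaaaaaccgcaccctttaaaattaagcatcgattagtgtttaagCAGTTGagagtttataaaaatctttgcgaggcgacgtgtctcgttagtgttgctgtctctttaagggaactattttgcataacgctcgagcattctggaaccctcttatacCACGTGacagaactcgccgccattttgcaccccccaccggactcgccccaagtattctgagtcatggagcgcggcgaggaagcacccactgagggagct
The *Kif17* promoter held a full CRE starting 86 bases before the start site, with its core on both strands, and an X-box 73 bases before it. A full CRE was found in 1.79% of 32851 promoters of the same length, and an X-box with the shorter spacer in 0.673%, against 0.804% for the longer one. The shorter spacer was added to the search after these sequences had been seen. The CRE core alone, found in 20.8% of promoters, lay in those of *Rfx2* and *Rfx4*. The *Rfx4* promoter also held the SOX motif (3.66% of promoters), and a downstream promoter of *Rfx4* the MYB motif (13.7%). The promoter of *Taf7l* held the MYB motif and an E-box, the latter 49 bases before the start site (7.15% of promoters). None of these letter patterns lay in the windows of *Tbpl1*, *Gtf2a1l*, *Sox30* or *Fhl5*. A match describes these letters only and is no evidence of binding.

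The deposited values are whole reads per gene, and the libraries held 16674678 to 19742726 counts. They are given here as CPM, which are scaled by library size and by edgeR's TMM factor, which lay between 0.943 and 0.961 in WT and between 1.02 and 1.07 in MLXKO libraries. *Mlx* itself had 96 to 128 counts in WT and 94 to 109 in MLXKO libraries; the count covers exons that the deletion left in place, so it does not check the genotype labels. The cell types of a whole testis were followed with marker lists. The 12 elongating spermatid markers summed to between 24119 and 25068 CPM in WT and between 14393 and 17601 CPM in MLXKO testes, and the 10 round spermatid markers to between 1573 and 1645 against 1302 and 1372 CPM. For the 11 spermatocyte markers in the table the sums were 2198 to 2259 against 1892 to 2017 CPM. Somatic markers went the other way: 10 of 10 Sertoli cell, 8 of 8 Leydig cell and 9 of 9 macrophage markers were past the threshold and higher in MLXKO testes, with sums of 1235 to 1284 against 1833 to 2240 CPM, 796 to 814 against 1748 to 2256 CPM, and 85.8 to 90.6 against 182 to 188 CPM. Of 7 endothelial and 6 peritubular myoid markers, 2 and 4 were higher and 0 and 1 lower, and 5 of the endothelial ones were not past the threshold. Over all genes tested, 24.8% were higher and 20.6% lower. The endothelial sums were 39.9 to 49.9 against 55.0 to 61.9 CPM. The myoid sums overlapped, at 310 to 369 against 309 to 325 CPM, and the most abundant myoid marker, *Actg2*, was the lower one (LFC -0.39). No marker of these lists was at 0 in any library. The marker sums of spermatocytes, spermatids, Sertoli cells, Leydig cells and macrophages thus moved with the genotype. The part of these and the other cell types in each result on the members was not tested. In such bulk RNA, fewer cells of a type and less RNA per cell cannot be told apart.

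Of the 10 regulators, 9 were lower in MLXKO than in WT testes at an adjusted p under 0.05 (quasi-likelihood test of edgeR, Benjamini-Hochberg adjusted over 14640 genes), 0 were higher, and *Taf7l* was the member that did not pass. The background is wide, with 45.4% of all genes tested past the threshold, 20.6% lower and 24.8% higher. The changes were small, from -10.8% for *Mybl1* to -21.6% for *Rfx2*, and the median log2 fold change (LFC) was -0.19, against 0.03 over all genes tested. In each of the 9, every MLXKO library lay below every WT library, a pattern that 25.9% of all genes tested showed (30.3% showed the reverse), and each was lower in 3 of 3 littermate pairs, as were 31.7% of all genes tested. Together the 10 genes took 0.262% to 0.273% of all counts in WT and 0.243% to 0.258% in MLXKO libraries.

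**Figure D1:**
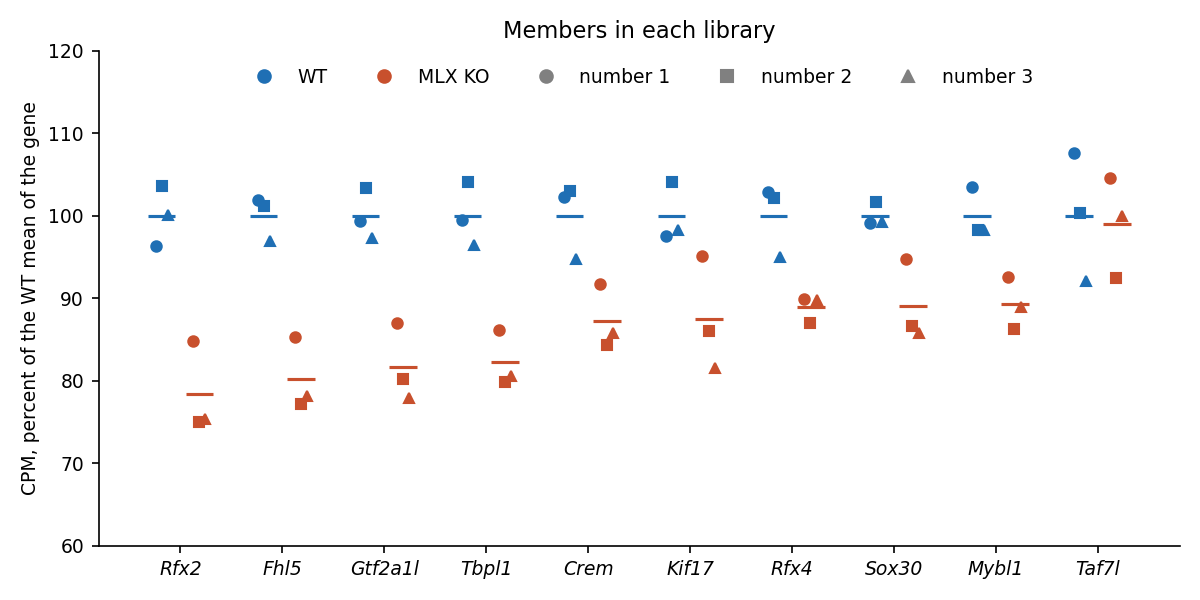
CPM of each member in each library as a percent of that gene's WT mean (y axis, drawn from 60 to 120), with WT in blue, MLXKO in red, the library number as the marker shape and the group means as bars. The MLXKO points lie below all WT points for 9 members and among them for *Taf7l*, and the MLXKO library numbered 1 is the highest of its group for all 10.

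All 10 members were well expressed, between the 65.6th and the 98.5th percentile of the CPM of genes tested. Per length of annotated exon, *Fhl5* had the highest level, with 210 ± 5.69 CPM per kb in WT (SD, n = 3) and 169 ± 9.32 in MLXKO testes. *Gtf2a1l* (177 ± 5.46 CPM per kb in WT), *Kif17* (136 ± 4.90), *Sox30* (94.2 ± 1.36), *Tbpl1* (93.9 ± 3.60), *Rfx2* (73.5 ± 2.71), *Crem* (38.9 ± 1.78), *Rfx4* (24.6 ± 1.07), *Mybl1* (18.2 ± 0.551) and *Taf7l* (17.96 ± 1.39) followed in that order. The ranges of *Sox30* and *Tbpl1*, and those of *Mybl1* and *Taf7l*, overlapped between neighbours in both genotypes, while the other neighbours lay apart. The order depends on the length used. With the longest transcript in place of all exons, *Crem*, for which 39 transcripts are annotated, rose from 38.9 to 78.3 CPM per kb and *Rfx2* from 73.5 to 130 CPM per kb.

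**Figure D2:**
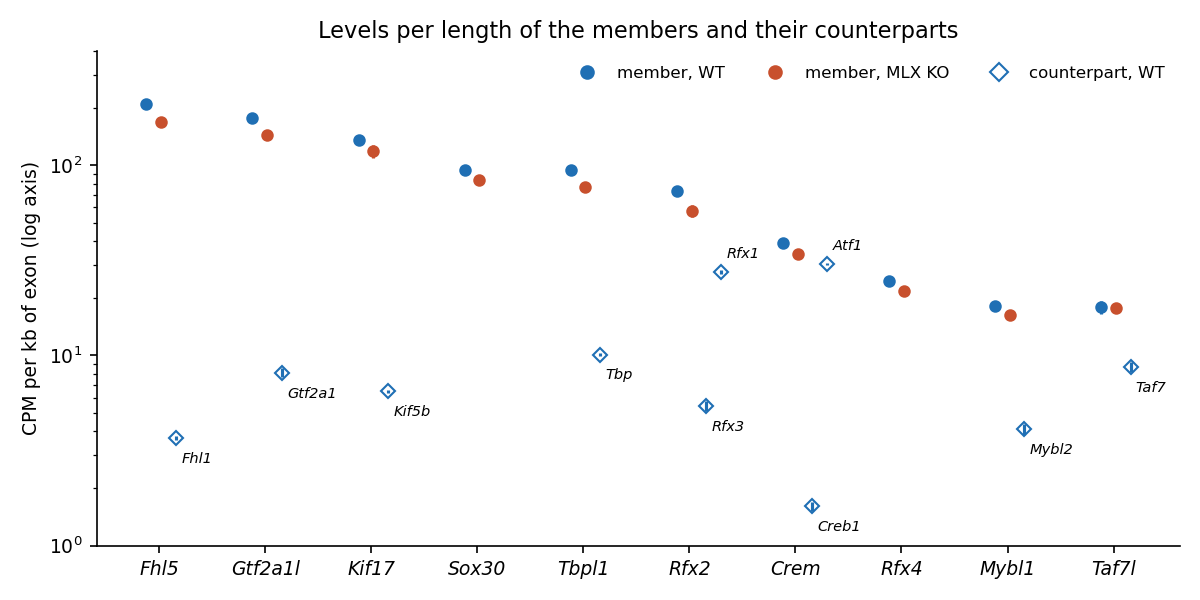
Level per kb of exon (log axis) of each member in WT (blue circles) and MLXKO testes (red circles), and of its counterpart genes in WT (open diamonds), as means with SD over 3 libraries. *Fhl5* is the highest at 210 and *Taf7l* the lowest at 17.96 CPM per kb in WT, and each counterpart lies below its member.

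With TMM scaling, all parts of the CREM branch were lower in MLXKO testes. Unlike that of *Fhl5*, the calls of *Crem* and *Kif17* did not hold with library size alone (LFC -0.06 and -0.05). They also did not hold in every fit with 1 library left out. *Crem* (chromosome 18, 3266354 to 3337773, minus strand) had 235, 236 and 217 CPM in WT libraries 1 to 3 and 210, 194 and 197 CPM in MLXKO libraries 1 to 3. All MLXKO values lay under the lowest WT value, by a narrow margin. The LFC was -0.20 (SE 0.05, adjusted p = 0.0113), a change of -12.7% with a 95% interval of -18.8% to -6.15%. The count sums over all *Crem* transcripts, so activator forms and the ICER repressors that start at an internal promoter cannot be told apart. *Fhl5* (chromosome 4, 25199907 to 25242852, minus strand), which encodes the coactivator ACT, had 251, 249 and 238 CPM in WT and 210, 190 and 192 CPM in MLXKO testes. The gap between the groups was larger than the range within either. Its LFC was -0.32 (SE 0.05, adjusted p = 6.97e-04). *Kif17* (chromosome 4, 138262251 to 138301973, plus strand), whose product controls where ACT lies, was the most abundant member in CPM. It had 607, 648 and 612 CPM in WT and 592, 535 and 507 CPM in MLXKO testes. Here the highest MLXKO library came close to the lowest WT library. The LFC was -0.19 (SE 0.06, adjusted p = 0.0245), and it ranged from -0.04 in pair 1 to -0.28 in pair 2.

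Of the germ cell versions of general transcription factors, *Tbpl1* and *Gtf2a1l* passed the test and *Taf7l* did not. *Tbpl1* (chromosome 10, 22703877 to 22732666, minus strand), the TBP relative, had 306, 320 and 296 CPM in WT and 265, 246 and 248 CPM in MLXKO testes, an LFC of -0.28 (SE 0.05, adjusted p = 0.00120). Of its exon bases, 12.4% overlap exons of *Slc2a12* on the opposite strand, a gene with a mean of 76.3 counts in WT. *Gtf2a1l* (chromosome 17, 88665493 to 88715157, plus strand), the TFIIA subunit, had 331, 345 and 324 CPM in WT and 290, 267 and 260 CPM in MLXKO testes. Its LFC was -0.29 (SE 0.05, adjusted p = 0.00131), and both genes had groups that lay well apart. *Taf7l* (chromosome X, 134460116 to 134476505, minus strand) had 43.4, 40.4 and 37.2 CPM in WT and 42.2, 37.3 and 40.3 CPM in MLXKO testes. The groups overlapped throughout. The LFC was -0.01 (SE 0.07, adjusted p = 0.889), lower in 2 of 3 pairs, and its 95% interval ran from -10.4% to 9.46%, so that falls as large as those of *Tbpl1* or *Gtf2a1l* lay outside it and those near 10% did not.

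Among the DNA-binding factors, *Rfx2* changed most. *Rfx2* (chromosome 17, 56775897 to 56831008, minus strand), an activator of cilium and flagellum genes, had 517, 557 and 538 CPM in WT and 456, 403 and 405 CPM in MLXKO testes. The LFC was -0.35 (SE 0.06, adjusted p = 7.36e-04), a change of -21.6% with a 95% interval of -27.6% to -15.1%. *Rfx4* (chromosome 10, 84756036 to 84906538, plus strand) had 119, 119 and 110 CPM in WT and 104, 101 and 104 CPM in MLXKO testes (LFC -0.17, SE 0.05, adjusted p = 0.0160). *Sox30* (chromosome 11, 45979069 to 46017992, plus strand), an HMG box factor, had 280, 287 and 280 CPM in WT and 267, 245 and 242 CPM in MLXKO testes (LFC -0.17, SE 0.05, adjusted p = 0.0203). In *Sox30* the WT libraries were nearly equal, with a coefficient of variation of 1.44%, and the MLXKO libraries were spread more widely, at 5.52%. *Mybl1* (chromosome 1, 9667407 to 9700439, minus strand), which encodes A-MYB, had 102, 96.8 and 96.9 CPM in WT and 91.2, 85.1 and 87.7 CPM in MLXKO testes (LFC -0.16, SE 0.05, adjusted p = 0.0182). With the littermate pair as a block in DESeq2, *Mybl1* did not pass (LFC -0.19, adjusted p = 0.0541), whereas with the block in edgeR 9 members passed, as without it.

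The calls of *Rfx2*, *Fhl5*, *Gtf2a1l* and *Tbpl1* held when any 1 library was left out, and those of the other 5 did not. *Crem* did not pass without the WT library numbered 2 or the MLXKO library numbered 2 or 3, where its adjusted p was 0.0558, 0.0609 and 0.0509. *Mybl1* was lost without WT1, KO2 or KO3, *Rfx4* without WT1, WT2 or KO2, *Sox30* without WT1, WT2, KO2 or KO3, and *Kif17* without WT2, WT3, KO2 or KO3 (LFC from -0.21 to -0.14 in those 4 fits, with KO for MLXKO libraries). The number of members lower was 9 without KO1, 8 without WT3, 6 without WT1, 5 without WT2 or KO3 and 4 without KO2. The lower share of all genes tested moved as well, from 20.6% in the main fit. It was 23.0% without KO1, 17.0% without WT3, 16.9% without WT1, 15.0% without WT2, 14.8% without KO3 and 14.4% without KO2. In all 10 members KO1 was the highest MLXKO library, and the median change over the members was -0.17 in pair 1, -0.28 in pair 2 and -0.23 in pair 3. KO1 also had the highest sum of elongating spermatid markers of the MLXKO libraries (17600 against 15411 and 14393 CPM) and the lowest of Leydig cell markers (1748 against 2256 and 2115 CPM). The part of these differences in the members' values was not tested.

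The falls depended on the quantity that the libraries were scaled to. With library size alone, which moved the median LFC of all genes tested to 0.16, *Rfx2* (LFC -0.21), *Fhl5* (-0.18), *Gtf2a1l* (-0.15) and *Tbpl1* (-0.14) stayed past the threshold and the other members did not, with LFCs from -0.06 to 0.12. Relative to the summed counts of the spermatocyte markers, the median over the members was 0.01. On that scale *Rfx2* (LFC -0.15, adjusted p = 0.0143) and *Fhl5* (LFC -0.12, adjusted p = 0.0260) were lower and *Taf7l* was higher (LFC 0.19, adjusted p = 0.0436), while *Crem* had an LFC of 0.01 and *Kif17* one of 0.01. Relative to the round spermatid markers, 0 members were lower, and *Taf7l* (LFC 0.27, adjusted p = 0.0158) and *Sox30* (LFC 0.12, adjusted p = 0.0296) were higher. *Rfx2* was still the lowest, at -0.07 (adjusted p = 0.174). The last 2 scales moved the median LFC of all genes tested to 0.23 and 0.31. Of the genes called there, 9.57% and 3.96% were lower, against 45.3% with TMM. Among all 14640 genes tested, the lower share was 8.66% by library size, 4.71% by spermatocyte markers and 2.36% by round spermatid markers. Higher genes numbered 6514 and 8386 on the 2 marker scales, a larger share than the 1 and 2 of 10 members. A new scale moves all genes by nearly the same amount, so the members kept the same order, from *Rfx2* down to *Taf7l*, with TMM and with round spermatid markers.

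**Figure D3:**
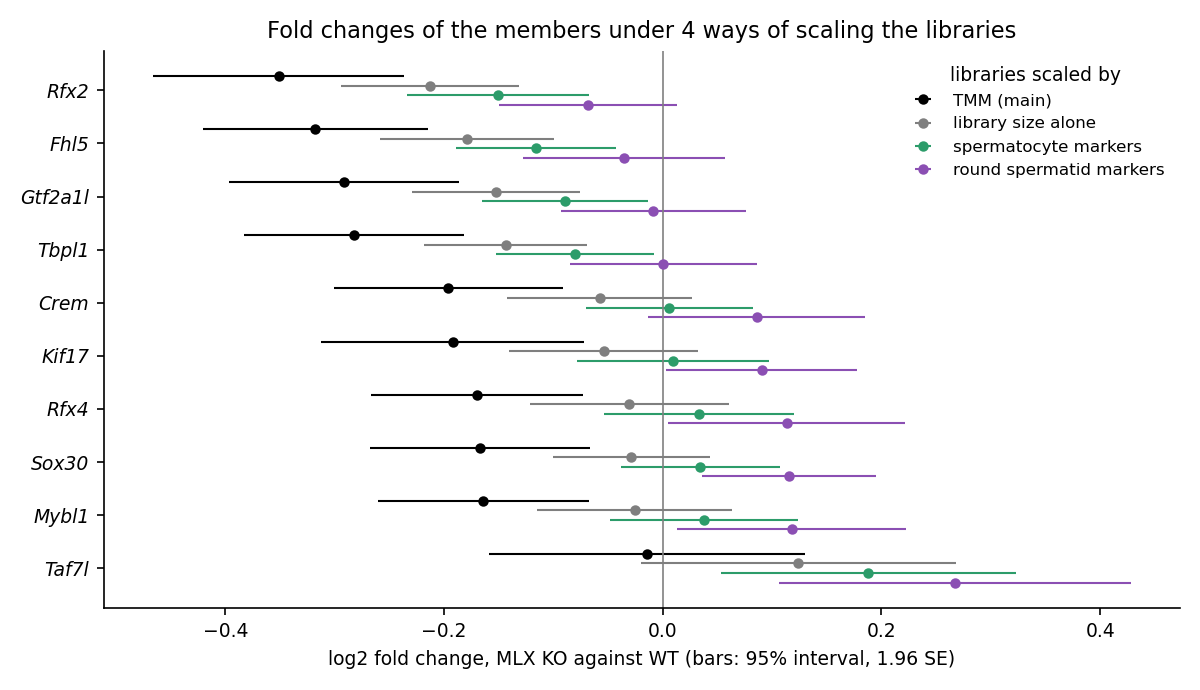
LFC of each member in MLXKO against WT testes with its 95% interval from the SE, with libraries scaled by TMM (black), library size alone (grey), spermatocyte markers (green) or round spermatid markers (purple). *Rfx2* moves from -0.35 with TMM to -0.07 with round spermatid markers, and *Crem*, *Kif17*, *Rfx4*, *Sox30*, *Mybl1*, *Tbpl1* and *Taf7l* change sign on at least 1 scale.

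Ratios within a library do not depend on that scaling, so 8 members were compared with more broadly expressed genes of the same family or kind, in 10 ratios. *Rfx4* and *Sox30* had no such counterpart here. Of the 10 ratios, 6 were lower in every MLXKO than in every WT library and 4 overlapped. An exact permutation test over the 6 libraries cannot give a two-sided p below 0.1 with 3 testes against 3, which these 6 ratios reached (adjusted p = 0.167 over the 10 ratios), so none could pass. *Fhl5* was 4.17 ± 0.0748 log2 units above *Fhl1* in WT and 3.43 ± 0.193 in MLXKO testes (SD, n = 3 each), a change in the ratio of -40.2%. *Fhl1*, the muscle and somatic LIM-only gene, was itself higher in MLXKO testes (LFC 0.43, adjusted p = 0.00259). The ratio of *Kif17* to *Kif5b*, a ubiquitous kinesin, fell by 0.83 on the log2 scale, from 3.58 ± 0.0385 to 2.76 ± 0.175, and *Kif5b* rose by an LFC of 0.63 (adjusted p = 1.53e-05). *Crem* against *Creb1* went from 3.37 ± 0.0836 to 2.95 ± 0.273. *Creb1* had an LFC of 0.23 and an adjusted p of 0.0913, with groups that overlapped. Against *Atf1*, another CRE-binding activator gene, the difference for *Crem* was -0.13, with overlapping groups (exact permutation p = 0.2, adjusted p = 0.25).
For the general factors, *Gtf2a1l* against *Gtf2a1* differed by -0.38 and *Tbpl1* against *Tbp* by -0.16, without overlap. *Tbp* was lower itself (LFC -0.13, adjusted p = 0.0404) and *Gtf2a1* was not past the threshold (LFC 0.09, adjusted p = 0.243). *Taf7l* against *Taf7* differed by -0.06, with overlapping groups (exact permutation p = 0.5). The ratio of *Mybl1* to *Mybl2*, which encodes B-MYB, was 2.38 ± 0.146 in WT and 2.20 ± 0.0943 in MLXKO testes. For *Rfx2* against *Rfx1* the difference was -0.05, with overlapping groups (exact permutation p = 0.3). *Rfx1* fell as well, with an LFC of -0.30 (adjusted p = 0.00179). Against *Rfx3*, at an LFC of -0.22 (adjusted p = 0.0106), the difference was -0.14 (exact permutation p = 0.2).

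**Figure D4:**
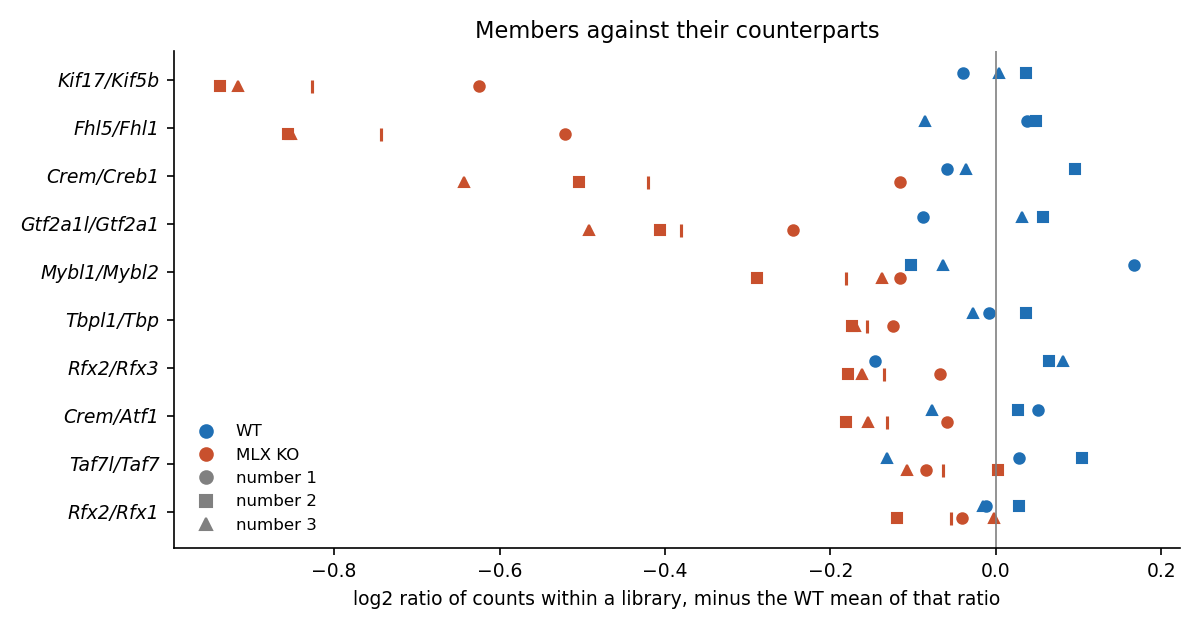
Log2 ratio of the counts of a member to those of a counterpart in each library, minus the WT mean of that ratio (x axis), with WT in blue, MLXKO in red, the library number as the marker shape and the MLXKO mean as a bar. The bars run from -0.83 for *Kif17* to *Kif5b* to -0.05 for *Rfx2* to *Rfx1*, and 6 ratios show no overlap between the genotypes.

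The members were also compared with each other inside libraries, in 13 ratios chosen after the values were seen. Against *Taf7l*, 7 of the other 9 members were lower in every MLXKO library than in every WT library. The exceptions were *Sox30* and *Kif17*, whose ratios to *Taf7l* overlapped. These differences ranged from -0.34 for *Rfx2* to -0.15 for *Mybl1*. The other 9 were already known to be lower and *Taf7l* to have changed least, so these ratios are no independent support. The log2 ratio of the coactivator gene *Fhl5* to *Crem* was 0.10 ± 0.0294 in WT and -0.02 ± 0.0164 in MLXKO testes, without overlap (exact permutation p = 0.1, the smallest possible, and adjusted p = 0.144 over the 13 ratios). The log2 ratio of *Kif17* to *Crem* was 1.44 ± 0.0621 in WT and 1.44 ± 0.0677 in MLXKO testes (exact permutation p = 0.9). That of *Kif17* to *Fhl5* was higher in every MLXKO library, by 0.12 (exact permutation p = 0.1, adjusted p = 0.144). For *Rfx2* to *Rfx4* the difference was -0.18, with overlapping groups (exact permutation p = 0.2, adjusted p = 0.236).

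The programs that these factors serve are shown with lists of genes. Over all genes tested, 20.6% were lower and 24.8% higher, with 14.4% to 23.0% lower when 1 library was left out. With library size alone 8.66% were lower. On the spermatocyte and round spermatid scales 49.2% and 59.6% were called, of which only 9.57% and 3.96% were lower. Of the 14 genes of the piRNA pathway, several of them targets of A-MYB, 7 were lower and 0 higher by the test. Their median LFC was -0.15, beside an LFC of -0.16 for *Mybl1* and a median of -0.21 for the spermatocyte markers. A link between these changes was not tested. The lower count of the piRNA genes was 3 without WT1 or KO2 and 1 with library size alone. On the spermatocyte and round spermatid scales 0 were lower and 2 and 7 higher. *Tdrd6*, a tudor protein of the chromatoid body, had an LFC of -0.26 (adjusted p = 0.00292) and *Gtsf1*, which acts with PIWI proteins, one of -0.23 (adjusted p = 0.00791). The most abundant, *Mael*, was lower by less, with an LFC of -0.16 (adjusted p = 0.0334). Of 15 axoneme and cilium genes in the table, the class that RFX factors are known to control, 11 were lower and 0 higher, with a median LFC of -0.21. With 1 library left out 7 (without WT1 or KO3) to 12 were lower, with library size alone 4, on the spermatocyte scale 1, and on the round spermatid scale 0 were lower and 4 higher. *Rsph9* and *Rsph1*, radial spoke genes, had LFCs of -0.32 and -0.29, and the microtubule gene *Tekt1* one of -0.32 (adjusted p = 0.00312, 0.00136 and 5.38e-04). The elongating spermatid list, which holds known CREM targets, fell furthest, with 12 of 12 genes lower and a median LFC of -0.54, and 11 were still lower on both stage scales. *Tnp2*, *Prm1* and *Tnp1*, which encode the transition proteins and a protamine that replace histones, had LFCs of -0.82, -0.80 and -0.76 (adjusted p = 2.35e-05, 2.22e-05 and 2.86e-05). These falls were larger than that of any member, including *Crem* (-0.20) and *Fhl5* (-0.32).
Among 15 other regulators of meiotic and haploid genes in the table, 10 were lower and 1 higher. With library size alone 6 were lower and 2 higher, on the spermatocyte scale 4 and 2, and on the round spermatid scale 2 and 5. *Spz1*, a bHLH factor of spermatids, had an LFC of -0.45, *Zfp541*, of pachytene spermatocytes, one of -0.39, and *Ybx2*, an RNA-binding protein that stores spermatid messages, one of -0.34 (adjusted p = 3.77e-04, 2.98e-04 and 9.74e-04). *Patz1* was the gene that rose (LFC 0.59, adjusted p = 0.00998).

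In the wider families of the members, genes were called in both directions. Over all genes tested, 20.6% were lower and 24.8% higher, and with library size alone 8.66% were lower. On the spermatocyte and round spermatid scales 49.2% and 59.6% were called, of which only 9.57% and 3.96% were lower. Of 16 CREB family and cAMP signaling genes, 4 were lower and 5 higher, with a median LFC of 0.11, which is close to the shares over all genes tested (20.6% lower and 24.8% higher). The higher count was 1 with the replicate block in DESeq2, 2 in DESeq2 or without WT1, WT2 or KO3, 3 without KO2, 8 without KO1 or with library size alone, and 10 on either stage scale, where 1 was lower. Lower were *Prkar2a*, a regulatory subunit of protein kinase A (LFC -0.55, adjusted p = 2.16e-05), *Camk4* (LFC -0.32), *Creb3l4* (LFC -0.23) and *Adcy10*, the soluble adenylyl cyclase of sperm (LFC -0.23, adjusted p = 0.0150). Higher were the catalytic subunit gene *Prkacb* (LFC 0.62, adjusted p = 3.07e-04), the membrane adenylyl cyclase gene *Adcy3* (LFC 0.62), the CREB coactivators *Crtc2* (LFC 0.30) and *Crtc3* (LFC 0.27), and *Prkar1a* (LFC 0.14). Of 8 relatives of FHL5 and KIF17, 4 were lower and 2 higher, the latter being *Kif5b* (LFC 0.63) and *Fhl1* (LFC 0.43). With library size alone or on the spermatocyte scale 2 were lower and 3 higher, and on the round spermatid scale 0 and 4. Lower were, among others, *Fhl4*, another testis LIM-only gene (LFC -0.30, adjusted p = 0.00122), and *Kifap3* (LFC -0.31, adjusted p = 8.33e-04), an adaptor of kinesin-2 motors. Of 24 general transcription factor genes tested, 8 were lower and 1 higher, with a median LFC of -0.11. The lower count was 2 without WT2 or KO2, 4 without KO3, 5 without WT1 or WT3 and 4 with the replicate block in DESeq2. With library size alone 1 was lower and 5 higher, and on the stage scales 0 were lower and 7 and 12 higher. *Taf6* (LFC -0.33), *Taf6l* (LFC -0.24) and *Gtf2e2* (LFC -0.23) fell most and *Taf1* rose (LFC 0.24). The abundant *Taf9* and *Gtf2f1* had LFCs of -0.22 and -0.18. Among 17 relatives in the MYB, RFX and SOX families, 5 were lower and 4 higher, which is near the shares over all genes tested (20.6% and 24.8%). With KO2 left out 3 were lower, with library size alone 1 was lower and 5 higher, and on the stage scales 0 were lower and 6 and 10 higher. The RFX genes *Rfx1*, *Rfx8* and *Rfx3* led the falls (LFC -0.30, -0.26 and -0.22), *Sox6* (LFC -0.20) and *Sox5* (LFC -0.15) were the others that fell, and *Sox4*, *Sox13* and *Sox8*, a Sertoli cell gene, led the rises (LFC 0.57, 0.55 and 0.47).

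**Figure D5:**
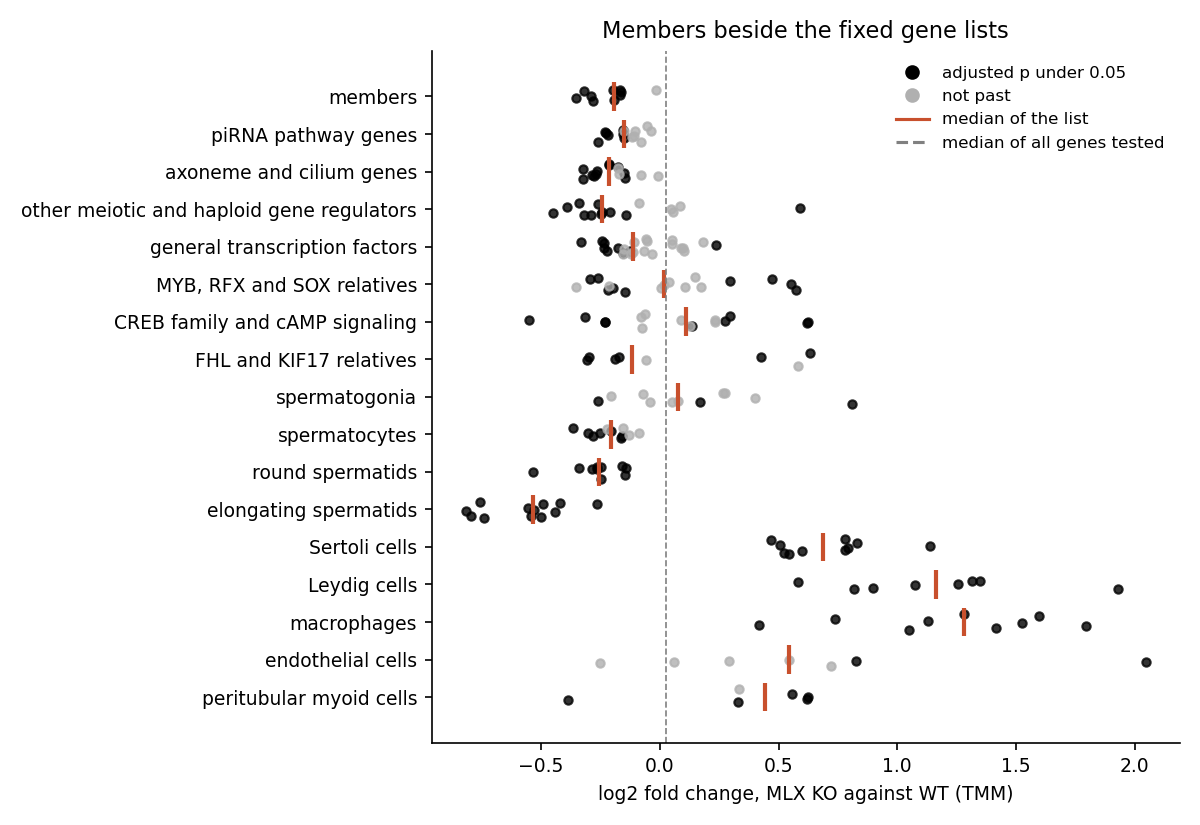
LFC in MLXKO against WT testes (x axis, TMM) of the 10 members and of the genes of each list, black where the adjusted p was under 0.05 and grey where not, with the list median as a red bar and the median of all genes tested as a dashed line. The medians are -0.19 for the members, -0.21 for the spermatocyte and axoneme lists and -0.54 for the elongating spermatid list, and the points of these lists overlap.

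The stage lists are given beside these values. Over all genes tested, 20.6% were lower and 24.8% higher, and with library size alone 8.66% were lower. Of the 11 spermatocyte markers tested, 7 were lower and 0 higher, with a median LFC of -0.21, and of the 10 round spermatid markers all were lower, with a median of -0.26. The lower spermatocyte markers were 3 without KO2, 4 without KO3, 5 without WT1 or WT2 and 2 with library size alone, where 5 round spermatid markers were lower. Lower round spermatid markers numbered 7 without WT2, KO2 or KO3 and 8 without WT3 or with the replicate block in edgeR. They numbered 9 without WT1 or with the block in DESeq2. *Spo11*, which makes the breaks of meiotic recombination, had an LFC of -0.36 (adjusted p = 0.00255), *Syce1*, of the synaptonemal complex, one of -0.30, and *Tssk6*, a kinase gene of spermatids, one of -0.53 (adjusted p = 1.54e-04). Spermatogonial markers, of which 11 were tested, had a median of 0.08; *Id4* was lower (LFC -0.26), and *Kit* (0.81) and *Uchl1* (0.17) were higher.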

How the data were processed

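RNA-seq of whole testes from 3 WT and 3 MLXKO males was analysed. Per the labels and methods, RNA was extracted with Trizol, sequenced as paired ends on a HiSeq and mapped by the authors with TopHat (mm10). The counting tool, its strand setting and the annotation are not given in the sources used here. The deposited counts are whole reads per gene symbol, without normalization. The table also holds the authors' own comparison (mean, log2 fold change, SE, statistic and p-values), which was not used.

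Of 17933 rows, 2 repeats were dropped. Counts were filtered (filterByExpr, minimum count 10), scaled by TMM and tested with edgeR 4.0.16 in R 4.3.3 (quasi-likelihood, genotype only, two-sided, Benjamini-Hochberg over 14640 genes, threshold 0.05). SEs are the LFC divided by the root of F, and 95% intervals assume a normal error. Ratios used 0.5 added counts and exact permutation tests. DESeq2 1.42.0 was an alternative. Code was tested on simulated data. Exon lengths are from GENCODE vM21, and coordinates and promoters from RefSeq, both on GRCm38 (mm10). Of the lists' genes, *Meioc*, *Cfap43*, *Cfap44*, *Cfap52*, *Taf4* and *Meiosin* matched no row, and *Nanos3*, *Tbpl2* and *Myb* had too few counts.

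Same-numbered libraries are called paired in the titles and littermates in the methods. Deviations from the group means correlated at 0.143, 0.0228 and 0.120 within the 3 pairs and at most at 0.0373 otherwise. Libraries of a genotype differed beyond counting noise (chi-square of at least 2.73 per degree of freedom). Genes eligible for naming were all members, their counterparts and, per list, up to 3 genes past the threshold with the largest changes in each direction and the 2 most abundant. Examples of these are given, and somatic lists as counts and sums, apart from *Actg2*. *Crtc3* and *Sox6* were named after their values were seen. Members and lists were chosen with earlier results of these data known.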

Additional observations from a re-analysis of the deposited data

How the results depend on the processing

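Each member had at least 636 counts in every library, and the number of testes (3 per genotype) limits the exact tests to p = 0.1. Of 170 member values under alternatives, 126 kept their direction and side of the threshold, 28 were no longer past it and 16 changed sign. Among the 126 are the values for an unadjusted p of at most 0.05, which are those of the main fit. The 9 lower members became 4 with library size alone, 2 with spermatocyte and 0 with round spermatid scaling, and 4 to 9 with 1 library left out. The higher members became 1 and 2 with these stage scalings. Of all genes tested, 14.4% to 23.0% were lower with 1 library left out, against 20.6% in the main fit. The members' median LFC became -0.056 with library size alone and changed sign to 0.0077 and 0.088 with spermatocyte and round spermatid scaling. Lower genes in the whole table became 1268, 689 and 346 on these 3 scales (3015 with TMM), and higher genes 6514 and 8386 on the last 2 (3634 with TMM) and 2193 with the replicate block in DESeq2. By construction, a scale set by markers that fell moves all genes up.

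Signs changed for *Taf7l* with library size alone (0.12), without WT1 (0.041) and without KO2 (0.038), with a range of -0.072 to 0.041 when 1 library was left out. Relative to spermatocyte markers they changed for *Crem* (0.0061), *Mybl1* (0.038), *Taf7l* (0.19), *Rfx4* (0.033), *Sox30* (0.035) and *Kif17* (0.0093), and relative to round spermatid markers for *Crem* (0.086), *Mybl1* (0.12), *Tbpl1* (0.00058), *Taf7l* (0.27), *Rfx4* (0.11), *Sox30* (0.12) and *Kif17* (0.090). An unadjusted p of at most 0.05 was read from the main fit, so none of the 9 lower members could be lost there. DESeq2, its size factors, upper-quartile normalization, both other filters and the replicate block in edgeR each gave 9 lower members. The block in DESeq2 gave 8 (*Mybl1* lost, adjusted p = 0.0541). The pairing changed no other call among the members. All 80 alternative values of the counterpart ratios kept their sign. For each of the 10 ratios, however, the within-pair value equals the main one and could not change sign. Within pairs the smallest exact p was 0.25. Of 10 levels per kb, 8 moved by more than the SD with the longest transcript. List counts stayed within 1.5 times in 452 of 544 alternatives.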
